A study of Mus musculus with 6 samples.

Results

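The Kcn genes encode the potassium channels of the mouse, with their accessory subunits. They were described here as every gene whose symbol starts with Kcn in the expression table of sorted ileal tuft cells, which gave 95 of the 23420 genes of the table. Of these 95 genes, 77 encode a channel pore. Classed by symbol, 40 were voltage-gated, 8 calcium- or sodium-activated, 15 inward rectifiers and 14 tandem pore channels, which carry a pair of pore regions in each subunit. The classes follow the symbols and not the gating of each member. A further 16 encode accessory subunits that bind a pore and change its gating, conductance or transport to the cell surface. The remaining 2 are Kcnq1ot1, a long non-coding RNA made antisense to Kcnq1, and Kcnrg, a regulator of voltage-gated channels.

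Potassium channels let potassium ions pass down their electrochemical gradient and so hold the membrane of a resting cell at a negative potential. Many tandem pore channels and inward rectifiers are open at rest, voltage-gated channels open on depolarization, and the calcium-activated channels couple a rise in cytosolic calcium to a change in membrane potential. In epithelia such as that of the intestine, potassium channels also recycle the potassium taken up by the sodium pump and provide the driving force for secretion of chloride. Tuft cells are chemosensory epithelial cells that respond to taste receptor and metabolite receptor ligands through a rise in calcium and the opening of the cation channel encoded by Trpm5, which depolarizes the cell.

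RNA was sequenced in 6 libraries of 1 group, each labelled as a separate mouse replicate. The mice were young adult, carried the Gfi1b-eGFP reporter on the C57BL/6J background and were given no treatment named in the labels. In these heterozygous mice the green fluorescent protein is made in place of the product of 1 copy of Gfi1b, a gene for a transcription factor, and the cells were sorted from ileal epithelium as live GFP+ EpCam+ CD45- cells, so a cell counted as a tuft cell by its reporter and not by its own marker proteins. The libraries form no other group, and all comparisons are between genes of the same library or across the 6 libraries.

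Levels are given as TPM, a share of all transcripts that is corrected for transcript length and summing to the same total in each library, so levels of different genes can be set side by side. TPM keeps no read number, the depth of each library is unknown, and a gene without any value is said to be listed at 0. The libraries listed 13044 to 13308 genes above 0. All 14 tuft cell markers of the list used here were above 0 in every library, with a sum of 4832 to 7844 TPM. The markers of Paneth cells (a sum of 4089 to 26976 TPM, all 7 above 0 in every library), enterocytes (7542 to 15677 TPM, all 8), goblet cells (1053 to 5118 TPM, all 7) and stem cells (317 to 788 TPM, all 5) were present too, while those of enteroendocrine cells (10.3 to 128 TPM, 2 of 9 above 0 in every library) and T cells (24.8 to 216 TPM, 5 of the 7 in the table) were low. A sum can rest on a single gene: Fabp1 alone gave 4226 TPM (replicate 5) to 12794 TPM (replicate 1) of the enterocyte sum. By the median log2(TPM + 1) of each list, averaged over libraries, the tuft list was at 8.09 and the enterocyte list at 6.39. The Paneth list was at 10.2, the goblet list at 8.06 and the stem cell list at 4.75. A level of a Kcn gene is therefore that of the sorted population, and fewer cells of a type and less RNA per cell cannot be told apart. Rn45s, the ribosomal RNA precursor, took 23.1% to 32.6% of the TPM, and the unnamed transcript Gm20594 took 1.56% to 2.13% in replicates 1 to 3 and 5.18% to 5.64% in replicates 4 to 6.

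The pore-forming members share a short stretch of protein that the symbol did not use, the selectivity filter, which lines the narrowest part of the pore and passes potassium while holding back sodium. Its coding sequence is shown for Kcnk1, the pore with the highest mean, and for Kcnd3, a voltage-gated pore, because it is the feature that separates the pores from the accessory subunits among the members. A script searched the longest coding sequence of each gene in GENCODE M21 (build GRCm38) for threonine or serine, any residue, glycine, then tyrosine, phenylalanine or leucine, then glycine. Each line gives 30 bases, 5′ to 3′ on the coding strand, with the codons of the glycine, aromatic or leucine residue and second glycine in capitals.
Kcnk1, first filter: ctctccaccacaGGCTATGGCcacacggtg
Kcnk1, second filter: ctgagcaccatcGGCCTGGGGgactatgtt
Kcnd3: atgactacactgGGATATGGAgacatggtg

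The second filter of Kcnk1 lies at chr8:126025323-126025352 on the plus strand in exon 2 of the transcript searched, and its first filter is split between exons 1 and 2 of that transcript. The filter of Kcnd3 is split between exons 1 and 2 of the transcript searched, on the plus strand of chromosome 3. The second filter of Kcnk1 has a leucine codon, ctg, where the other printed filters, its own first filter and that of Kcnd3, have a tyrosine codon. The pattern was found in all 77 members classed as pores, at 2 places in each of the 14 tandem pore members and in 2 of the 40 voltage-gated members, and in none of the 16 accessory members. It was found in 81.9% of the 94 protein-coding Kcn genes, against 5.35% of all 21951 protein-coding genes of the annotation, which is a match of letters and not a count of channels. Among the 12 protein-coding members with a mean of at least 5 TPM, 9 held it. Kcne3, Kcnmb4 and Kcnab2 did not, and all 3 are accessory subunits.

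Most Kcn genes were listed at 0 or at low levels in these cells. Of the 95 genes, 56 (58.9%) were above 0 in any library, where 67.1% of all genes were, and 17 (17.9%) were above 0 in every library, where 47.2% of all genes were. A mean of at least 1 TPM was reached by 20 members (21.1%), against 51.4% of all genes, and a mean of at least 10 TPM by 8 members (8.42%), against 29.8% of all genes. Under all 4 rules the share of members was below that of all genes, and the difference was not tested. The 17 genes above 0 in every library included Kcne3, Kcnk1, Kcnq1, Kcnj16, Kcnn4, Kcnd3, Kcnq1ot1, Kcnk5, Kcnk6, Kcnk3, Kcnab2, Kcnh2, Kcnh8, Kcnj11 and Kcnj15. The other members split into 39 listed at 0 throughout, 14 listed above 0 in 1 library and 25 in 2 to 5 libraries. Single libraries listed 28 to 37 members.

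**Figure D1:**
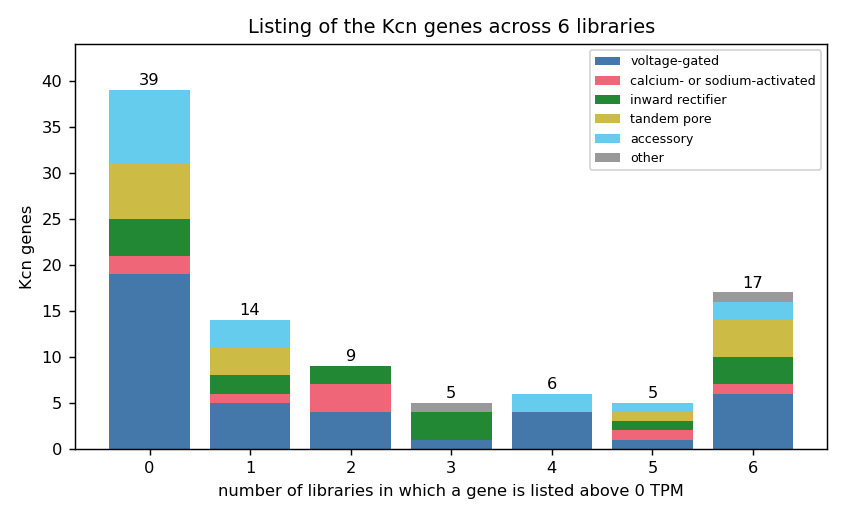
Number of Kcn genes (vertical axis) by the number of libraries, from 0 to 6, in which each is listed above 0 TPM (horizontal axis), with the classes stacked in colour. The bars for 0 and 6 libraries hold 39 and 17 genes, and every class except the 2 other genes has members at 0 in all libraries.

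The members' transcripts were concentrated in a few genes. Kcne3, Kcnk1, Kcnq1, Kcnj16 and Kcnn4 together held 77.8% ± 3.93 (SD, n = 6) of the summed TPM of all 95 genes, between 74.4% and 85.0% by library. These 5 genes comprise an accessory subunit, a tandem pore channel, a voltage-gated pore, an inward rectifier and a calcium-activated channel, so each class of channel was led by a different gene at a mean above 45 TPM. Summed over all members, the TPM was 633.1, 584.9, 526.2, 465.7, 440.0 and 380.9 in replicates 1 to 6. Replicates 1 to 3 were above replicates 4 to 6, the libraries in which Rn45s and Gm20594 together took 32.0% to 37.8% of the TPM against 24.6% to 27.3% in replicates 1 to 3. When the TPM was rescaled without these 2 genes, the sums were 870.5, 799.7, 698.2, 685.0, 706.7 and 612.7, and the sets overlapped. With median-of-ratios rescaling they were 606.2, 522.7, 491.4, 483.8, 489.3 and 412.5, and replicates 1 to 3 stayed above replicates 4 to 6. The cause of the difference between the sets was not tested.

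Kcne3 had the highest mean. It encodes a small accessory subunit of 103 residues that holds the Kcnq1 channel open at resting potentials in intestinal epithelium, and its gene lies at chr7:100176502-100184869 on the plus strand. Its level was 90.8, 65.6, 179.6, 84.0, 98.2 and 82.7 TPM (replicates 1 to 6), which gave a mean of 100.1 ± 40.4 (SD, n = 6). Replicate 3 was well above the other libraries, and without it the mean was 84.2 TPM. In each library Kcne3 lay between the 86.7th and the 94.9th percentile of the genes listed above 0.

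Kcnq1, the voltage-gated pore that Kcne3 accompanies, lies at chr7:143106362-143427042 on the plus strand. Its level was 115.9, 103.4, 88.3, 67.5, 75.2 and 68.4 TPM, with a mean of 86.4 ± 19.8 (SD, n = 6). This was the narrowest spread by fold among the 17 members above 0 in every library, with the highest library 1.72-fold above the lowest. Kcnq1ot1, the antisense transcript that acts in imprinting of the Kcnq1 region, was listed at 17.2, 15.1, 8.47, 15.7, 12.6 and 15.1 TPM, with a mean of 14.0 ± 3.11 (SD, n = 6). It lies at chr7:143203458-143296549 on the minus strand as 1 exon of 93092 bases inside Kcnq1, and shares 121 of the 4093 exon bases of Kcnq1. The sources used here do not state a strand setting, so reads from the shared bases cannot be told apart between these genes.

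Kcnk1, a tandem pore channel of weak inward rectification, lies at chr8:125995170-126030685 on the plus strand. It had 123.3, 135.7, 75.3, 114.8, 62.3 and 56.6 TPM, with a mean of 94.7 ± 34.0 (SD, n = 6). The library values fell into no clear order with those of Kcne3: Kcne3 was the highest member in 3 libraries and Kcnk1 in the other 3. Kcnj16, an inward rectifier subunit that is known to conduct in heteromers with Kcnj10 or Kcnj15, lies at chr11:110968033-111027968 on the plus strand. Its values were 117.0, 70.1, 44.4, 68.6, 47.7 and 49.9 TPM, with a mean of 66.3 ± 27.1 (SD, n = 6), and replicate 1 stood above the others. Kcnn4, a channel of intermediate conductance that is opened by calcium through calmodulin, lies at chr7:24370263-24386690 on the plus strand. It had 27.2, 60.3, 59.7, 31.9, 60.1 and 31.3 TPM, with a mean of 45.1 ± 16.5 (SD, n = 6). Its libraries fell into 3 near 60 TPM and 3 near 30 TPM.

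**Figure D2:**
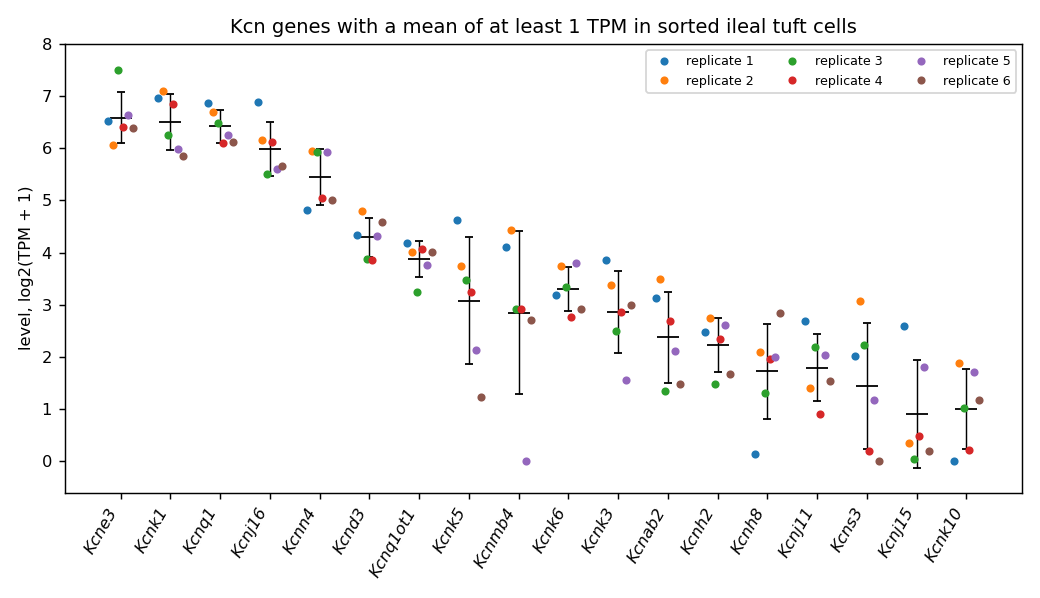
Level of 18 Kcn genes that average 1 TPM or more, as log2(TPM + 1) on the vertical axis, with 1 coloured point per library and a bar and whiskers for the mean ± SD over 6 libraries. The first 5 genes lie above the sixth, Kcnd3, in every library, and Kcnk5, Kcnmb4, Kcns3 and Kcnj15 show wide spreads.

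The next members were less abundant. Kcnd3, the pore of a transient outward current, had 13.4 to 26.7 TPM in the 6 libraries and a mean of 19.2 ± 5.17 (SD, n = 6). Kcnk6, a tandem pore channel related to Kcnk1, had 5.82 to 13.0 TPM, with a mean of 9.17 ± 2.96 (SD, n = 6). Both were above 0 in every library. Kcnk5, a tandem pore channel opened by alkaline pH, had 23.8, 12.4, 10.2, 8.45, 3.38 and 1.35 TPM, with a mean of 9.93 ± 7.95 (SD, n = 6). Kcnk3, an acid-sensitive tandem pore channel, had 1.93 to 13.5 TPM, with a mean of 7.14 ± 4.01 (SD, n = 6), and 229 of the 3976 exon bases of its gene are shared with an antisense transcript. Antisense transcripts also share 179 of the 2235 exon bases of Kcnk1, 165 of the 9587 of Kcnd3 and 9 of the 1779 of Kcne3. Kcnab2, a cytosolic accessory subunit of voltage-gated channels, had 1.55 to 10.2 TPM, with a mean of 5.02 ± 3.48 (SD, n = 6). The spread of Kcnk5 was close to its mean.

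Kcnmb4 encodes an accessory subunit of the large conductance calcium-activated channel whose pore is Kcnma1. It had 16.3, 20.6, 6.58, 6.61, 0 and 5.52 TPM, with a mean of 9.26 ± 7.63 (SD, n = 6). Of the 3324 exon bases of its gene, 355 are shared with the antisense transcript Kcnmb4os1 and 693 with Kcnmb4os2. The strand setting is not stated, so reads from these bases cannot be assigned to a strand. Kcnma1 itself had 0.050 TPM in replicate 1 and 2.21 TPM in replicate 2 and was listed at 0 in the other 4 libraries. The accessory transcript was thus listed above 0 in 3 libraries in which its pore was listed at 0. Lrrc26, which encodes a different accessory subunit of the same channel and has no Kcn symbol, had 3.66 to 16.1 TPM, with a mean of 8.33 ± 5.01 (SD, n = 6), and was above Kcnma1 in all 6 libraries.

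Further members with a mean of at least 1 TPM stayed below 4 TPM on average. Kcnh2, a pore of the delayed rectifier current of the heart, had 1.80 to 5.71 TPM and a mean of 3.92 ± 1.59 (SD, n = 6), and its relative Kcnh8 had 0.10 to 6.17 TPM and a mean of 2.82 ± 2.03 (SD, n = 6). Kcns3, a silent subunit that modifies other voltage-gated pores, had 0 to 7.42 TPM, with a mean of 2.59 ± 2.80 (SD, n = 6) that was 1.63 TPM without replicate 2. Kcnk10, a tandem pore channel gated by stretch, was between 0 and 2.67 TPM, with a mean of 1.23 ± 1.08 (SD, n = 6). The remaining pair, Kcnj11 and Kcnj15, are inward rectifiers that were compared with related genes.

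Neighbours in the order of means were mostly not separated. Of the 12 steps between the 13 members with a mean of at least 5 TPM, 3 were larger than the SD of the within-library difference in log2(TPM + 1). Kcnq1 lay above Kcnj16 by 0.43 ± 0.39, Kcnn4 above Kcnd3 by 1.15 ± 0.63, and Kcnd3 above Kcnq1ot1 by 0.41 ± 0.37 (SD, n = 6). The step from Kcnn4 to Kcnd3 was the 1 step of the 12 that ran the same way in all 6 libraries. Kcne3 differed from Kcnk1 by 0.08 ± 0.86 and Kcnk1 from Kcnq1 by 0.08 ± 0.42, so the order among the first 3 genes was not resolved.

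Summed by class, the voltage-gated genes were highest, with 135.0 ± 26.5 TPM (SD, n = 6), or 26.9% ± 3.22 of the members' TPM. They were followed by tandem pore genes with 122.7 ± 43.1 TPM (23.8% ± 5.28), accessory genes with 115.4 ± 36.6 TPM (23.1% ± 6.74) and inward rectifiers with 71.8 ± 30.3 TPM (14.0% ± 3.80). The calcium- or sodium-activated genes had 45.9 ± 16.8 TPM (9.26% ± 3.37). The first 3 classes overlapped between libraries. Without its leading gene, the mean of a class fell to 48.6 TPM for the voltage-gated genes (without Kcnq1), 28.0 TPM for the tandem pore genes (without Kcnk1), 15.3 TPM for the accessory genes (without Kcne3), 5.52 TPM for the inward rectifiers (without Kcnj16) and 0.767 TPM for the calcium- or sodium-activated genes (without Kcnn4).

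**Figure D3:**
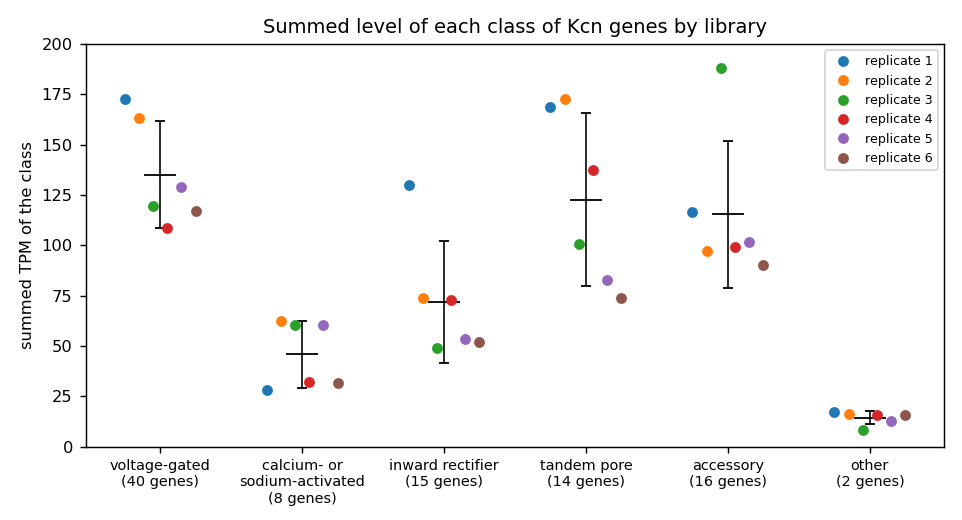
Summed TPM of the Kcn genes of each class on the vertical axis, with 1 coloured point per library and a bar and whiskers for the mean ± SD over 6 libraries. Replicate 1 stands at 129.8 TPM among the inward rectifiers, where the other libraries are at 49.1 to 73.6, and replicate 3 at 188.0 TPM among the accessory genes, where the others are at 90.3 to 116.5.

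Several subfamilies were listed at or near 0. Among the voltage-gated genes, 21 of 40 were above 0 in any library and 6 in every library, where 67.1% and 47.2% of all genes were. None of the 8 Kcna genes was above 0 in every library, and the highest Kcna mean was 0.297 TPM. The 4 Kcnc genes, which carry fast currents in neurons, reached a mean of at most 0.017 TPM. The 6 genes with a Kcnq symbol were split. Of these, 3 were above 0 in every library, Kcnq1 and Kcnq1ot1 among them. The other 3 were listed at 0 in all libraries, among them Kcnq3 and Kcnq5, voltage-gated relatives of Kcnq1. Of the inward rectifiers, 11 of 15 were above 0 in any library, a share above that of all genes, and 3 in every library, a share below it. Kcnj3 and Kcnj6, subunits of channels opened by G proteins, were listed at 0. Tandem pore genes were above 0 in any library in 8 of 14 cases and in every library in 4 (Kcnk1, Kcnk5, Kcnk6 and Kcnk3).

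Accessory subunits showed the same concentration. Of the 16 accessory genes, 8 were above 0 in any library and 2, Kcne3 and Kcnab2, in every library, against 67.1% and 47.2% of all genes. Kcne1, Kcne2 and Kcne4, relatives of Kcne3 that also bind Kcnq1, were listed at 0 in all 6 libraries. Kcnd3 is usually joined by Kcnip or Dpp proteins. Kcnip1 and Kcnip2 were listed at 0, Kcnip4 was above 0 in replicate 4 alone at 2.88 TPM, Kcnip3 had at most 1.42 TPM, and Dpp6 and Dpp10 were listed at 0.

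Within libraries, 7 pairs of related genes were set against each other. A pair was tested where neither gene was at 0 in 4 or more libraries, which left 3 pairs, by flipping the signs of the within-library differences in log2(TPM + 1) in all possible ways (an exact, two-sided permutation test). With 6 libraries the test has 64 assignments and cannot give a p below 0.03125, and p-values were adjusted over the 3 pairs by the Benjamini-Hochberg method. A pair whose differences have the same sign in all 6 libraries gives this smallest p whatever their size. The pairs were chosen with earlier results of these data known, so their p-values are no independent support.

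The pore Kcnq1 and its accessory subunit Kcne3 were not separated by the test. The difference in log2(TPM + 1), Kcnq1 minus Kcne3, was -0.16 ± 0.59 (SD, n = 6), smaller than its spread, and Kcnq1 was higher in 2 of 6 libraries (exact sign-flip permutation p = 0.531, adjusted p = 0.531). The ratio of Kcnq1 to Kcne3 TPM ran from 0.491 in replicate 3 to 1.58 in replicate 2, with a median of 0.815. Without replicate 3 the mean difference was 0.0071, so its sign rested on that library.

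Kcnj16 was far above Kcnj15, with which it can form a heteromeric channel. Kcnj15 had 5.02, 0.27, 0.030, 0.40, 2.49 and 0.15 TPM (replicates 1 to 6), which gave a mean of 1.39 ± 2.00 (SD, n = 6). The difference in log2(TPM + 1) was 5.08 ± 0.82 (SD, n = 6), with Kcnj16 higher in 6 of 6 libraries (exact sign-flip permutation p = 0.0312, the smallest the design allows, adjusted p = 0.0469). The ratio of TPM ran from 19.2 to 1481 with a median of 216, and its upper end rested on a Kcnj15 level of 0.030 TPM. Without replicate 1 the mean of Kcnj15 was 0.668 TPM. Kcnj10, the other known partner of Kcnj16, had at most 0.080 TPM.

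Kcnk1 was higher than Kcnk5 in 6 of 6 libraries. The difference in log2(TPM + 1) was 3.42 ± 0.81 (SD, n = 6; exact sign-flip permutation p = 0.0312, adjusted p = 0.0469), and the ratio of TPM ran from 5.19 to 41.9 with a median of 12.3. Replicates 1 and 3 had the smallest ratios, and replicate 6, with 1.35 TPM of Kcnk5, the largest.

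**Figure D4:**
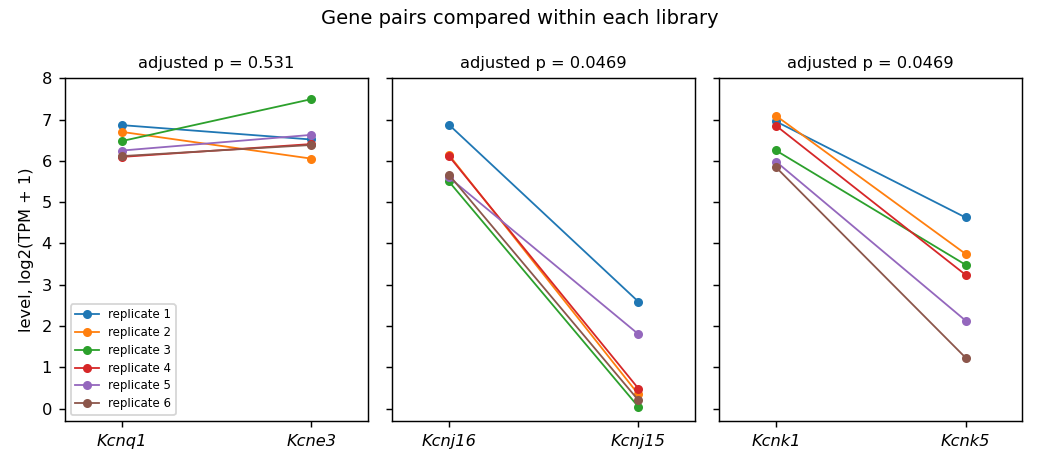
Levels of the 3 tested pairs as log2(TPM + 1) on the vertical axis, with a line for each of the 6 libraries joining the 2 genes of a pair, and the adjusted p of the exact sign-flip test above each panel. The lines of Kcnq1 and Kcne3 cross, while all 6 lines fall from Kcnj16 to Kcnj15 and from Kcnk1 to Kcnk5.

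The other 4 pairs were described without a test. Kcne3 had 65.6 to 179.6 TPM where Kcne2 was listed at 0. Kcnn4 was above Kcnma1 in 6 of 6 libraries, by 5.15 ± 0.66 (SD, n = 6) in log2(TPM + 1). For the pores of the ATP-sensitive potassium channel, Kcnj11 had 5.46, 1.63, 3.59, 0.88, 3.10 and 1.89 TPM, with a mean of 2.76 ± 1.65 (SD, n = 6), and Kcnj8 was listed at 0 in every library. Abcc8, the sulphonylurea receptor that joins Kcnj11 in pancreatic beta cells, had 1.64 to 5.73 TPM, and Abcc9, a related receptor, had at most 0.35 TPM. In the fourth pair, Lrrc26 was above Kcnma1 as given above.

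Other genes of potassium handling were taken from a list of 30 genes without a Kcn symbol, all of which were in the table. Of these, 24 were above 0 in any library and 16 in every library, where 67.1% and 47.2% of all genes were. A mean of at least 5 TPM was reached by 12, and the share of all genes at that level was not computed. Trpm5, the cation channel that is also on the tuft cell list, had 1141 ± 211 TPM (SD, n = 6), above every Kcn gene in all libraries. The sodium pump, which takes up the potassium that these channels release, was represented by its beta subunit Atp1b1 with 449.7 ± 127 TPM and by Atp1b3, a further beta subunit, with 37.0 ± 13.8 TPM. Slc12a7, a potassium chloride cotransporter, had 74.3 ± 14.8 TPM. Slc12a2, which loads chloride into secretory epithelium, had 18.2 ± 4.49 TPM, and the chloride channel gene Cftr had 12.1 ± 5.72 TPM (SD, n = 6 for each). Of the intracellular channels, Tmem175 had 11.0 ± 5.40 TPM and Tmem38b had 9.87 ± 5.45 TPM.

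The members' spread between libraries was close to that of all genes. The SD of log2(TPM + 1) over 6 libraries had a median of 0.54 among the 20 members with a mean of at least 1 TPM and of 0.55 among all 12032 such genes. It was highest for Kcnmb4, at 1.57. Among the 17 members above 0 in every library the highest library was above the lowest by a median of 2.63-fold, against 2.78-fold for 10721 genes, and by 167-fold for Kcnj15.

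Across the 6 libraries, each gene with a mean of at least 1 TPM was compared with the median log2(TPM + 1) of the tuft, the Paneth and the enterocyte marker lists, by Pearson's r with an exact permutation p over 720 pairings. No gene passed the Benjamini-Hochberg adjustment over the whole table for any of the 3 lists, where an adjusted p under 0.05 was the threshold (0 genes, or 0% of 12018, 12025 and 12024 genes), and by Spearman's rho none did either. At an unadjusted p under 0.05, 966 genes passed for the tuft list (8.04%), 715 for the Paneth list (5.95%) and 833 for the enterocyte list (6.93%). By Spearman's rho these were 655, 459 and 515 genes. The 3 lists were not independent of each other, with r = 0.83 between the Paneth and enterocyte medians and r = 0.58 between the tuft and enterocyte medians over the same 6 libraries.

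With the tuft list, 4 of the 20 members passed the unadjusted threshold, all rising with it, where 4.91% of all genes rose and 3.13% fell. Kcnj16 had r = 0.93 (exact permutation p = 0.00139, adjusted p = 0.428) and rho = 1.00 (exact permutation p = 0.00278), and r was 0.89 without replicates 1 and 3, the libraries farthest from the median of the list. Kcnab2 had r = 0.89 (exact permutation p = 0.0250, adjusted p = 0.536) and rho = 0.89 (exact permutation p = 0.0333), with r = 0.88 without those libraries. Kcnq1ot1 had r = 0.84 (exact permutation p = 0.0167, adjusted p = 0.515) and rho = 0.83 (exact permutation p = 0.0583), with r = 0.61 without those libraries. Centred within replicates 1 to 3 and 4 to 6, the sets that differ in Gm20594, r was 0.93 for Kcnj16, 0.87 for Kcnab2 and 0.99 for Kcnq1ot1. Of these, Kcnq1ot1 passed the unadjusted threshold (exact permutation p = 0.0278, the smallest that the 36 pairings within sets allow).

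Over the 20 members, r with the tuft list was positive for 15 and had a median of 0.55, against 55.8% of genes positive and a median of 0.086 over all genes tested. Kcne3 was among the 5 with a negative r, at -0.71 (exact permutation p = 0.110, adjusted p = 0.677), with rho = -0.60 (exact permutation p = 0.242) and r = -0.95 without replicates 1 and 3. The leading accessory subunit was thus highest in replicate 3, the library with the lowest tuft list, while Kcnj16 was highest in replicate 1, the library with the highest.

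With the Paneth and enterocyte lists, 1 of the 20 members each passed the unadjusted threshold. Among all genes, 1.66% rose and 4.28% fell with the Paneth list, and 2.01% rose and 4.92% fell with the enterocyte list. Kcnj16 had r = 0.12 with the Paneth list (exact permutation p = 0.822, adjusted p = 0.988) and r = 0.63 with the enterocyte list (exact permutation p = 0.179, adjusted p = 0.835), and Kcne3 had r = -0.23 (exact permutation p = 0.722, adjusted p = 0.978) and r = -0.51 (exact permutation p = 0.303, adjusted p = 0.889). The part of other epithelial cells in the members' levels was not tested beyond these values.

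**Figure D5:**
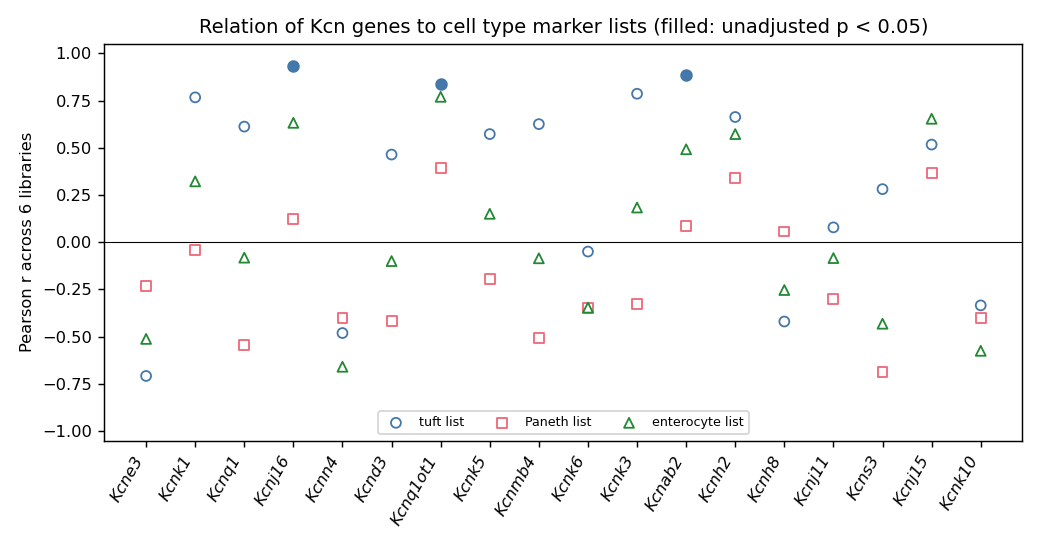
Pearson's r across 6 libraries (vertical axis) between each of 18 Kcn genes that average 1 TPM or more and the median level of the tuft, Paneth and enterocyte marker lists, shown as circles, squares and triangles. Filled symbols have an unadjusted p under 0.05, which are 3 circles, and none passes adjustment over all genes.

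Few of the abundant members had 1 library that stood apart. By Dixon's ratio (the gap of the highest or lowest library to its neighbour, divided by the whole range, against its critical value at 95% for 6 samples), 2 of the 20 members with a mean of at least 1 TPM had 1 library apart, Kcne3 and Kcnj16, where 9.04% of the 12032 genes with such a mean did. Their ratios were 0.714 and 0.646, and both fell below the limit on the log2 scale, at 0.601 and 0.531.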

How the data were processed

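RNA of 6 libraries of sorted ileal tuft cells was measured. The authors describe a modified SMART-Seq2 preparation, Bowtie alignment of paired-end reads to the UCSC mm10 transcriptome and quantification with RSEM, and deposited TPM per gene to 2 decimals, scaled to the same total in each library. RSEM divides reads shared by related transcripts by estimated shares. The labels also name TopHat and a tool for differential expression, which was not used here, and a 3' and a droplet preparation; which library these apply to is not given in the sources used here, nor is the strand setting. Depth is unknown, so no counting interval, detection limit or count model was computed, and Rn45s lowers all other values by a share that differs between libraries.

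Columns were matched to replicates by number, and 0 columns of per-sample values were left out. Members, gene lists and tests were chosen with earlier results of these data known. The rule named members that average 5 TPM or more, the leading gene of each class, both genes of each pair, members with 1 library apart and partner genes that average 5 TPM or more. Other members given with values were chosen after their values were seen. Tests used log2(TPM + 1), which understates differences of low genes: exact sign-flip tests over 64 assignments for pairs and exact permutation over 720 pairings for relations, adjusted over the 3 pairs and over all genes tested. Where nothing in the labels says more than that libraries are separate mouse replicates, p-values measure the spread between these samples.

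Alternatives were other thresholds, a pseudocount of 0.1, values under 0.1 TPM set to 0, median-of-ratios rescaling, rescaling without Rn45s and Gm20594, the exact Mann-Whitney test named in the paper (924 assignments), Spearman's rho, centring and leaving out each library. All 95 symbols were matched to GENCODE M21 on GRCm38, which is not the authors' gene model. The permutation tests, rescaling factors and Dixon ratio were tested on simulated data. The work was done in Python 3.11.15 (scipy 1.17.1, pandas 2.3.3, numpy 2.4.6), and figures were drawn with matplotlib 3.10.9. Some genes and sequences that the rule names are not reported here.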

Additional observations from a re-analysis of the deposited data

Results flagged for a closer look

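Dixon's ratio was computed for 40 results with 6 values each (33 members, 6 class sums and the sum over all members). It exceeded its critical value at 95% in 13. Chance flags about 1 in 20 groups of values that are not selected, a rate that does not hold here: members entered by reaching 1 TPM in any library, and 9 of the 11 members apart were under 1 TPM in all other libraries, so they entered through the library then found apart. Among the abundant members, Kcne3 had a ratio of 0.714, with replicate 3 at 179.6 TPM and the others at 65.6 to 98.2, and Kcnj16 had 0.646, with replicate 1 at 117.0 TPM and the others at 44.4 to 70.1. The sums that they lead followed them: the accessory genes had a ratio of 0.732 (188.0 TPM in replicate 3, 90.3 to 116.5 elsewhere) and the inward rectifiers 0.697 (129.8 TPM in replicate 1, 49.1 to 73.6 elsewhere). These are not separate from the single genes.

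A set of 4 low members were above 0 in 1 library alone, with a ratio of 1: Kcnd1 at 4.49 TPM in replicate 5, Kcnip4 at 2.88 TPM and Kcnk7 at 1.84 TPM in replicate 4, and Kcnk4 at 1.21 TPM in replicate 6. Kcnma1 had a ratio of 0.977, with 2.21 TPM in replicate 2. Replicate 1 was apart for Kcna1 (0.971, at 1.73 TPM), Kcng3 (0.927, at 3.58 TPM), Kcnip3 (0.838, at 1.42 TPM) and Kcng4 (0.798, at 3.91 TPM), where the other libraries had at most 0.79 TPM.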

How the results depend on the processing

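No analysis paired between groups was possible because the libraries form 1 group. The pairs tested were genes of the same library. Of the alternative values for the summaries and pairs, 173 stayed the same, 12 moved and 1 reversed. A count stayed the same within a set fold of the main count, and a level or spread within the SD of the main value. Tested pairs were judged on direction and side of the threshold. Untested pairs, and all pairs when a replicate was left out, were judged on direction and the SD alone. With a threshold of 1 TPM, 33 members were above it in any library, against 56 above 0. Rescaling without Rn45s and Gm20594, which multiplies the remaining values by 1.33 to 1.61, moved the class sums to 195.8 TPM (voltage-gated), 66.6 (calcium- or sodium-activated), 103.5 (inward rectifier), 175.9 (tandem pore), 166.1 (accessory) and 20.9 (other), and moved Kcne3 minus Kcne2 to 7.12. The same rescaling moved the means of 9 of the 13 members with a mean of at least 5 TPM, which are not in the tally above. It left 12 members with a mean of at least 10 TPM against 8, which was tallied as the same. With a pseudocount of 0.1 the untested differences were 9.89 for Kcne3 minus Kcne2, 7.88 for Kcnn4 minus Kcnma1, -4.62 for Kcnj8 minus Kcnj11 and -5.33 for Kcnma1 minus Lrrc26. Without 1 replicate, Kcnq1 minus Kcne3 ran from -0.33 to 0.0071, and the positive value came without replicate 3. Members past the unadjusted threshold with the tuft list numbered 8 of 56 when all genes above 0 were tested, where 6.91% of those genes passed, and 1 of 20 when centred, where 4.15% passed. Chosen after seeing the data, median-of-ratios rescaling and rescaling without the 2 genes put Dixon's ratio at 0.537 and 0.543 for Kcne3 and at 0.577 and 0.587 for Kcnj16, below the limit. The cause of these shifts was not tested. TPM keeps no depth, so a listing at 0 has no limit.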

Other observations

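The rank correlation between libraries (Spearman's rho over 15 pairs of libraries, given as a description across genes) was 0.91 to 0.94 over all genes and 0.61 to 0.77 over the 56 members above 0 in any library.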
